A study of Homo sapiens with 4 samples.

Results

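Krüppel-like factors (KLFs) are transcription factors that bind DNA through a trio of zinc fingers at the C-terminal end of the protein. The 10 members described here are KLF2, KLF4, KLF5, KLF6, KLF7, KLF9, KLF10, KLF11, KLF13 and KLF15, chosen by their current NCBI symbol from the 23459 genes listed in each count file, and all 10 were found. They were measured by RNA-Seq in hTERT RPE-1 cells, a wild type human line of retinal pigment epithelial origin that expresses telomerase. All cells were serum starved for 48 h in medium with 0.1% FBS and then treated with merbarone at 200 μM, a drug that inhibits the catalytic cycle of DNA topoisomerase II, for 4 h (240 min, 2 replicates) or 8 h (480 min, 2 replicates). Both groups carried the drug and the starvation. Untreated cells were not analysed here, so every difference is between the later and the earlier time of treatment, and time in the drug cannot be told apart from time in low serum. The line is a single immortalized cell line, so the replicates do not represent different donors. The study's methods call them biological replicates, without saying whether these were separate cultures, and p-values measure the spread between these libraries.

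KLF proteins recognize GC-rich elements known as GC boxes and CACCC boxes, which they share with the related SP proteins, and they differ mainly in the N-terminal part that recruits other proteins. KLF2, KLF4, KLF5, KLF6 and KLF7 belong to a branch that works mostly with acetyltransferases and often activates genes. KLF9, KLF10, KLF11 and KLF13 belong to a branch that binds the SIN3 corepressor, and KLF15 stands outside both. Several of these genes, among them KLF2, KLF4, KLF6 and KLF10, are known as rapid responders to growth factors, stress or flow, whereas KLF9 and KLF15 are known to respond to glucocorticoids.

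The number of reads counted on genes ranged from 8064450 to 10324697 per library. Of the listed genes, 12559 passed a CPM of 1 (counts scaled to the total of each library) in at least 2 libraries and were tested for a difference between 8 h and 4 h with edgeR. Values below are TMM-normalized counts, that is, counts brought to a common effective library size of 9586677 reads. A gene was called changed at a Benjamini-Hochberg adjusted p below 0.05, and a differentially expressed gene (DEG) had in addition an absolute log2 fold change (log2FC) above 1. The cell type was checked with 9 marker genes of retinal pigment epithelium. MITF and OTX2 were expressed, with 669 to 882 and 132 to 193 counts. SERPINF1 and PMEL were retained at a low level, with 22 to 30 and 7 to 12 counts. The other markers were absent or nearly so. RPE65 had 2 to 7 counts, BEST1 2 to 6, TYRP1 1 to 3, RLBP1 0 to 2, and TYR 0 in all libraries. The summed normalized count of this list was 924.7 to 984.4 at 4 h and 1057 to 1139 at 8 h, and none of its 4 retained genes passed the test. Of 5 endothelial markers, the 1 retained gene, KDR, fell (log2FC −0.88, edgeR adjusted p = 0.0083, in a range of 0.0032 to 0.0882 over the alternatives, the highest without the first 4 h replicate), PECAM1 had 1 to 3 counts, and the list summed to 71.6 to 78.1 at 4 h and 48.1 to 48.5 at 8 h. None of 4 leukocyte markers was retained, with CD3E at 0 in all libraries and sums of 6.35 to 12.6 at 4 h and 11.2 to 13.3 at 8 h. In the epithelial keratin list of 3 genes KRT18 fell (log2FC −0.51, edgeR adjusted p = 3.72e-05), KRT8 did not pass and KRT19 was at 0, with sums of 6587 to 7114 at 4 h and 5680 to 6174 at 8 h. In the mesenchymal list of 5 genes COL1A1 fell (log2FC −0.80, edgeR adjusted p = 9.43e-06) and VIM rose (log2FC 0.36, edgeR adjusted p = 0.000623, but 0.392 after the correction for the trend with expression, the highest of the alternatives). PDGFRB, with 2632 to 3306 counts, and THY1, with 4030 to 5484, did not pass (log2FC 0.08 and −0.01), and COL1A2 had 0 to 2 counts. The sums of this list were 88890 to 89530 at 4 h and 101900 to 121500 at 8 h. The part of these shifts in the results below was not tested.

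All 10 KLF genes were detected and retained, and their changes between 4 h and 8 h were divided in direction. KLF5, KLF9, KLF11 and KLF15 rose, KLF2, KLF6, KLF7 and KLF10 fell, and KLF4 and KLF13 did not pass the test. KLF15 passed the CPM filter only through the 8 h libraries, where it was higher, so its call does not stand on the same footing as the others. Of the other 9, which had at least 97 reads in every library, 7 were called, 3 higher and 4 lower, where 38.8% of all tested genes were called, 19.9% higher and 18.8% lower. Highly counted genes were called more often, and the share was 44.3% among the 9379 genes whose normalized count averaged 100 or more, which include these 9. With KLF15 the count was 8 of 10. The changes were moderate. The fold changes of the 7 lay between 1.30 for KLF6 and 1.59 for KLF9, and none of the 9 was a DEG, where 5.33% of all genes were DEGs, 1.45% higher and 3.88% lower. KLF15 was past the DEG threshold, on few reads. None of the 10 genes overlapped between the times: 5 were higher in both 8 h libraries and 5 lower. KLF15 is among the 5 that were higher, and passing the filter through the 8 h libraries alone favours such a separation. Such separation was seen in 69.7% of all tested genes, 34.8% with 8 h above and 34.9% with 8 h below, and in 73.5% of the genes with a mean of at least 100. The median log2FC was −0.34 over the 9 members and −0.04 with KLF15 included, against −0.00 for all tested genes. The choice to count without KLF15 was made after seeing the data.

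**Figure D1:**
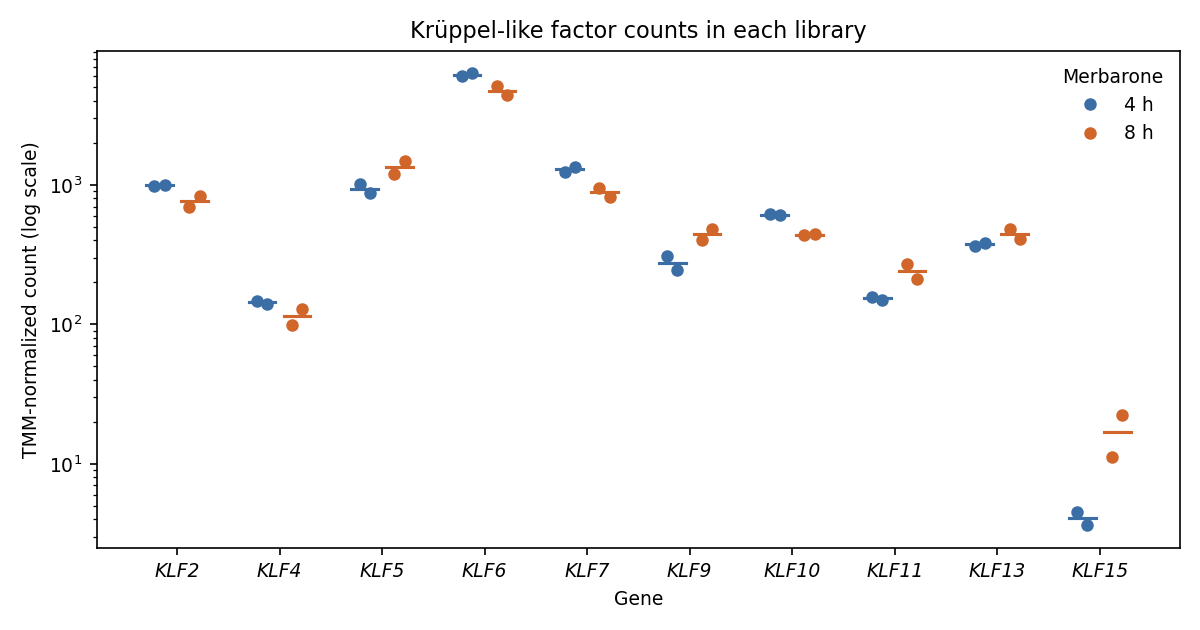
TMM-normalized counts (log scale) of the 10 Krüppel-like factor genes in each library, with 2 libraries at 4 h (blue) and 2 at 8 h (orange) and a line at the mean of each time. KLF6 is the highest in every library and KLF15 the lowest, and the times do not overlap in any of the 10 genes.

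**Figure D2:**
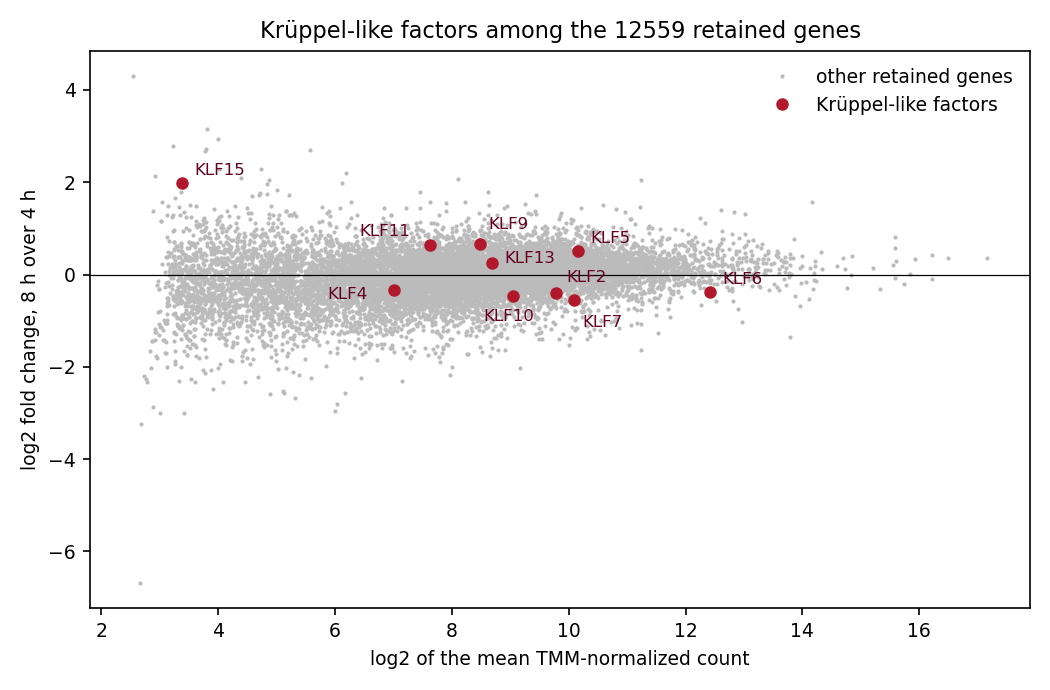
Log2 fold change between 8 h and 4 h (vertical axis) against the log2 of the mean TMM-normalized count (horizontal axis) for the 12559 retained genes (grey), with the 10 Krüppel-like factors in red. The members other than KLF15 lie within 0.67 of zero, inside the cloud of all genes, and KLF15 lies at 1.98 among genes of low count.

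Levels of different genes were compared as normalized counts per kilobase of the canonical transcript. KLF6 was the most expressed member, with 1346 ± 41.8 (SD, n = 2) per kilobase at 4 h and 1035 ± 107 (SD, n = 2) at 8 h. It carried 55.5% and 57.1% of the reads of the 10 genes at 4 h, against 52.9% and 47.7% at 8 h. KLF2 followed at 4 h, with 353 ± 3.67 per kilobase against 281 ± 30.0 for KLF5 (SD, n = 2 each). At 8 h this order was inverted, with 401 ± 60.3 for KLF5 and 269.9 ± 33.9 for KLF2 (SD, n = 2 each), and the libraries of these genes did not overlap at either time. KLF10 and KLF7 took the next places at both times, at 209.6 and 155 per kilobase at 4 h, against 151 and 106 at 8 h. The other members were low. At 4 h KLF13, KLF9 and KLF4 lay between 49.0 and 54.7 per kilobase on average, with libraries of KLF9 on both sides of those of KLF4 and KLF13, so that KLF9 did not differ from either beyond its spread, whereas both libraries of KLF4 were below those of KLF13. KLF11 was below them at 38.2. At 8 h KLF9, at 84.9, lay above KLF13 at 65.3 and KLF11 at 59.5, whose libraries overlapped, and KLF4 was next at 38.9. KLF15 was at 1.60 per kilobase at 4 h and 6.62 at 8 h. Reads that cross a splice junction were lost in the mapping, and when levels were divided by the positions where a read of 75 bases falls within an exon, a choice made after seeing the data, KLF4 moved from rank 8 to rank 6 at 4 h and all ranks at 8 h stayed.

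The summed normalized count of the 10 genes was 10888 and 11063 at 4 h, against 9650 and 9231 at 8 h, so that the sum was lower in both 8 h libraries. Most of this difference lay in KLF6. Without it, the sum was 4844 and 4748 at 4 h, against 4550.1 and 4827 at 8 h, and the times overlapped. In cultures measured in bulk, fewer cells that express a gene and less RNA per cell cannot be told apart.

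Of the activating branch, KLF2, KLF6 and KLF7 fell and KLF5 rose. KLF2 (NCBI Gene 10365; chromosome 19, 16435637 to 16439496, plus strand, hg19), a factor best known from endothelial cells and T lymphocytes, had 989 and 1004 normalized counts at 4 h, against 693 and 829 at 8 h. Both 8 h libraries were below the 4 h libraries, but they lay further apart from each other than the 4 h replicates. The mean went from 996 ± 10.3 to 761 ± 95.7 (SD, n = 2 each), or −0.39 as log2FC (standard error 0.09, edgeR adjusted p = 0.00267). Over the 4 fits that left out 1 library, the log2FC of KLF2 ran from −0.52 to −0.27.

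KLF6 (Gene 1316; chromosome 10, 3818188 to 3827473, minus strand), a widely expressed factor described as a tumour suppressor and as an early response gene, had 6044 and 6315 normalized counts at 4 h, against 5100.4 and 4403 at 8 h. The times were separate here too, and the mean of 6179.6 ± 192 fell to 4752 ± 493 (SD, n = 2 each), or −0.38 as log2FC (standard error 0.08, edgeR adjusted p = 0.000723). KLF7 (Gene 8609; chromosome 2, 207938861 to 208038580, minus strand), the closest relative of KLF6 and known for its role in neurons, had 1242 and 1345 normalized counts at 4 h, against 952 and 814 at 8 h. Of the 10 genes it had the largest fall, from 1294 ± 73.1 to 883 ± 97.8 (SD, n = 2 each), or −0.55 as log2FC (standard error 0.09, edgeR adjusted p = 0.000106). The ratio of KLF7 to KLF6 reads within a library was 0.205 and 0.213 at 4 h, against 0.187 and 0.185 at 8 h. It did not overlap between the times and was 0.89 times as high at 8 h on average. No test of this ratio was made, since 2 libraries per time are too few for an exact permutation test to pass. The intervals of the log2FC overlapped, from −0.74 to −0.36 for KLF7 and from −0.54 to −0.22 for KLF6. Whether KLF7 fell by more than KLF6 was therefore not tested.

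KLF5 (Gene 688; chromosome 13, 73629114 to 73651679, plus strand), a factor of proliferating epithelia, had 1012 and 870.3 normalized counts at 4 h, against 1202 and 1487 at 8 h. It was the member of this branch that rose, from 941 ± 100.4 to 1344.5 ± 202 (SD, n = 2 each), or 0.51 as log2FC (standard error 0.10, edgeR adjusted p = 0.000555). KLF4 (Gene 9314; chromosome 9, 110247133 to 110252763, minus strand), an epithelial differentiation factor and a reprogramming factor, had 148 and 139.6 normalized counts at 4 h, against 99.2 and 129 at 8 h. Both 8 h libraries were lower, with a log2FC of −0.34, but the 95% interval of the difference reached from −0.72 to 0.03 and the gene did not pass (edgeR adjusted p = 0.139). The call on KLF4 depended on the second 8 h replicate, since without it the log2FC was −0.54 (edgeR adjusted p = 0.0383), and without the first 8 h replicate it was −0.16 (edgeR adjusted p = 0.589). KLF2 and KLF4, which act redundantly in endothelium, kept a similar ratio, with 6.68 and 7.19 reads of KLF2 for each read of KLF4 at 4 h, against 6.99 and 6.41 at 8 h.

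**Figure D3:**
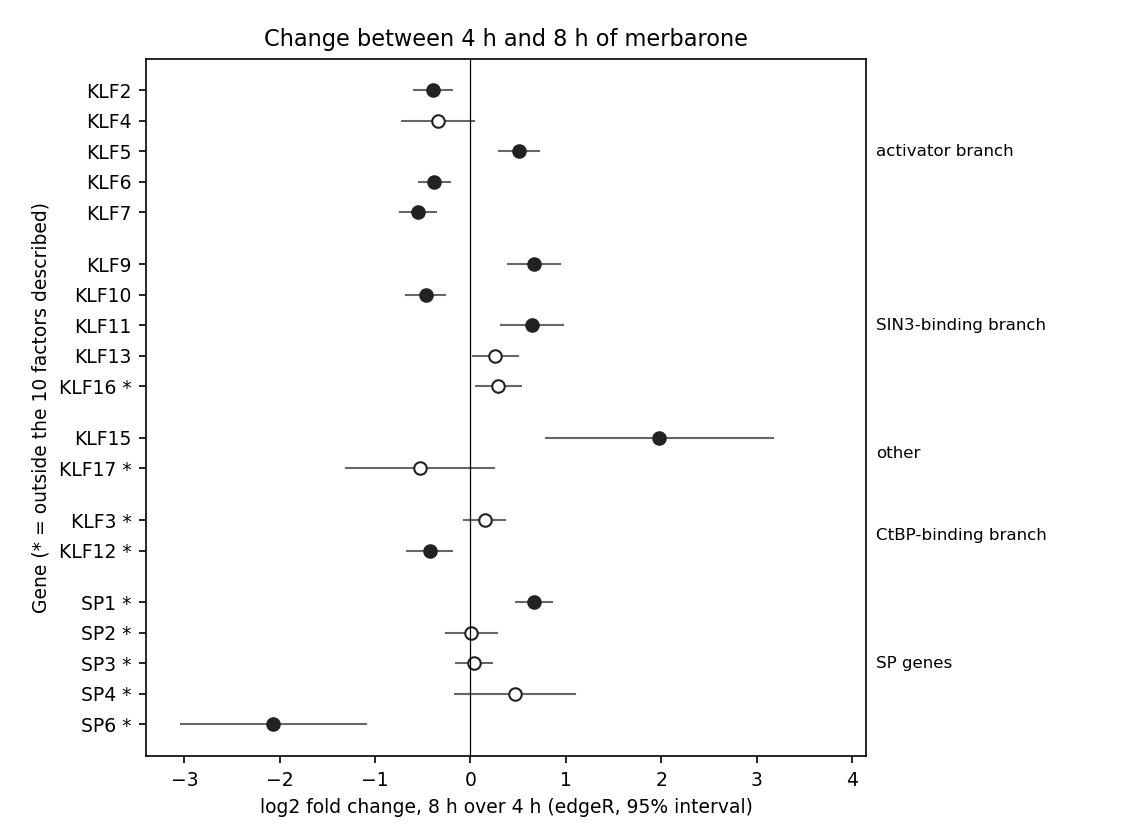
Log2 fold change between 8 h and 4 h with its 95% interval (horizontal axis) for the retained KLF and SP genes, grouped by branch, where filled points passed an edgeR adjusted p below 0.05, open points did not, and a star marks genes outside the 10 members. Each of the larger groups holds genes on both sides of zero, and KLF15 and SP6 have the widest intervals of the called genes.

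Sequences before the canonical transcripts are shown for genes that moved in opposite directions, because KLF and SP proteins bind GC and CACCC boxes. Each is the 250 bases before the start of the canonical GENCODE transcript on GRCh37, the assembly of hg19, written 5′ to 3′ on the strand of the gene. Capitals mark GC boxes (GGGCGG) and CACCC boxes (CACCC), searched on both strands, so that CCGCCC and GGGTG are marked as well. The gene spans given in this text cover all annotated transcripts. The windows of KLF5, KLF7 and KLF11, and that of KLF4, which is not printed, therefore lie inside the span of the gene. That of KLF6 overlaps the start of its span. The counts do not tell which start site was used in these cells. The first group holds members that fell: KLF2 (chr19:16435387-16435636), KLF6 (chr10:3827402-3827651, minus strand) and KLF7 (chr2:208030673-208030922, minus strand).
KLF2: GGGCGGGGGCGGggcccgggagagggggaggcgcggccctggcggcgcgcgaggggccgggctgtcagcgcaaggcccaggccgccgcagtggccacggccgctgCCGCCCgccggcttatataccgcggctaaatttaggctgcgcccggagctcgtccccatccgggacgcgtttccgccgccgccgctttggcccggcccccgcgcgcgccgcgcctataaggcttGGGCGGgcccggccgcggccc
KLF6: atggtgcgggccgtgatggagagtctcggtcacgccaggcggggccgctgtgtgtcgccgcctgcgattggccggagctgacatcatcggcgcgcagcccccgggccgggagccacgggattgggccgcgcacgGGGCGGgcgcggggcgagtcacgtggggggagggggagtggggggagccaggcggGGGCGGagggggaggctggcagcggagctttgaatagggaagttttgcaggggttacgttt
KLF7: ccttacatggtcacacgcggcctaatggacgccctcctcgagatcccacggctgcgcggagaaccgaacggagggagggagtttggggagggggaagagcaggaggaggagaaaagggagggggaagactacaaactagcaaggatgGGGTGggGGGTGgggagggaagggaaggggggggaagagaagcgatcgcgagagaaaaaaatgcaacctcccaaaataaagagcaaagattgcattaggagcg
The second group holds members that rose: KLF5 (chr13:73632893-73633142), KLF9 (chr9:73029574-73029823, minus strand) and KLF11 (chr2:10183427-10183676).
KLF5: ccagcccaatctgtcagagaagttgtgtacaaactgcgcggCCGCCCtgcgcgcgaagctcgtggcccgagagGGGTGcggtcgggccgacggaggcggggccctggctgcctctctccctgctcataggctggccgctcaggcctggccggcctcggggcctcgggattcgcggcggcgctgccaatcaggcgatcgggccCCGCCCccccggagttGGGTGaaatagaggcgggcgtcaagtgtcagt
KLF9: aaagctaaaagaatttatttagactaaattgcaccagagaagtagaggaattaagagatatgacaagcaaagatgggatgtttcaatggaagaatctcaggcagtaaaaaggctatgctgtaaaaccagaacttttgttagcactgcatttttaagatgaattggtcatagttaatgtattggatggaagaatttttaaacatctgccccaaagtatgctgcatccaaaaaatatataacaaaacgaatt
KLF11: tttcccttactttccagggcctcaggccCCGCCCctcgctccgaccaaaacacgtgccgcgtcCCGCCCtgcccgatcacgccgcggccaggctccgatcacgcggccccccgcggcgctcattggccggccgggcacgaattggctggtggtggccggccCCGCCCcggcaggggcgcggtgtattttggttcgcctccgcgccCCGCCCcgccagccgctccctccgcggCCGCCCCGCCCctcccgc

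A GC box was found in 8 of the 10 promoters, the exceptions being KLF7 and KLF9, against 59.1% of the 19869 promoters of protein-coding genes. A CACCC box was found in 4, those of KLF5, KLF7, KLF10 and KLF13, against 58.7% of all promoters. KLF2 had 4 GC boxes and no CACCC box and KLF11 had 6 GC boxes, so genes that fell and genes that rose both carried them. KLF7 had 2 CACCC boxes, and KLF9 had neither element and a GC content of 32.4%, the lowest of the members and below the lower quartile of all promoters (54.0%). The GC content of the other 9 lay between 58.0% and 80.4%, in all but KLF7 above the median of all promoters (63.2%). The shares of all promoters given here were not matched for GC content. A MEF2 site was found in KLF2 alone of the 10, as CTAAATTTAG, and in 2.0% of all promoters. An E-box (CACGTG), the element of MYC and of the circadian clock proteins, was found in KLF4, KLF6, KLF11 and KLF15, against 7.9% of all promoters. The cyclic AMP response element TGACGTCA, the AP-1 site TGANTCA, the TATA box TATAAA and the CArG box of serum response factor were found in none of the 10 windows, and in 2.4%, 4.7%, 9.3% and 1.1% of all promoters. The CRE core TGACG, which the full element contains, was found in KLF4, KLF5, KLF10, KLF13 and KLF15 and in 25.4% of all. These matches describe the letters of the window.

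Of the SIN3-binding branch, KLF9 and KLF11 rose, KLF10 fell and KLF13 did not pass. KLF9 (Gene 687; chromosome 9, 72999520 to 73029573, minus strand), a factor induced by glucocorticoids and thyroid hormone, had 310.5 and 244 normalized counts at 4 h, against 402 and 481 at 8 h. The mean of 277 ± 47.1 at 4 h became 441 ± 55.8 at 8 h (SD, n = 2 each), a rise close to that of KLF11 in log2FC, at 0.67 (standard error 0.13, edgeR adjusted p = 0.00051). KLF11 (Gene 8462; chromosome 2, 10182976 to 10194963, plus strand), a factor induced by TGF-beta and linked to insulin gene regulation, had 158 and 150.5 normalized counts at 4 h, against 270 and 210.0 at 8 h. The 8 h replicates were apart from each other but both above 4 h (log2FC 0.64, standard error 0.15, edgeR adjusted p = 0.00246).

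KLF10 (Gene 7071; chromosome 8, 103661012 to 103667953, minus strand), first described as a TGF-beta inducible early gene and the closest relative of KLF11, went the other way. It had 615 and 607 normalized counts at 4 h, against 437 and 445 at 8 h, and its replicates were, relative to the mean, the closest of all members at both times. The mean fell, with 611 ± 5.18 at 4 h against 441 ± 5.74 at 8 h (SD, n = 2 each), or −0.47 as log2FC (standard error 0.10, edgeR adjusted p = 0.000838). The ratio of KLF11 to KLF10 reads within a library, which does not depend on the scaling between libraries, was 0.257 and 0.248 at 4 h, against 0.618 and 0.472 at 8 h. It was thus 2.16 times as high at 8 h on average. The ratio did not overlap between the times, which follows from KLF11 being higher and KLF10 lower in both 8 h libraries. With 2 libraries against 2, an exact permutation test of such a ratio cannot give a two-sided p below 0.333, so no test was made.

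KLF13 (Gene 51621; chromosome 15, 31619038 to 31727868, plus strand), known as a regulator of CCL5 in T lymphocytes, had 365 and 383 normalized counts at 4 h, against 484 and 410.0 at 8 h. Both 8 h libraries were higher, but the log2FC of 0.26 did not pass (standard error 0.11, 95% interval 0.02 to 0.49, edgeR adjusted p = 0.0746). The call depended on the second 8 h replicate, without which the log2FC was 0.37 (edgeR adjusted p = 0.014), and it was also made with the replicate number as a block (log2FC 0.26, edgeR adjusted p = 0.0417). Without the first 8 h replicate the log2FC was 0.13, and over all alternatives the adjusted p ran from 0.014 to 0.466.

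KLF15 (Gene 28999; chromosome 3, 126061478 to 126076251, minus strand), a glucocorticoid-induced regulator of amino acid and glucose metabolism in liver and muscle, was barely expressed, with 5 and 4 reads at 4 h and 11 and 18 reads at 8 h. The normalized counts were 4.49 and 3.63 at 4 h, against 11.25 and 22.4 at 8 h, and the log2FC was 1.98 with a standard error of 0.57 (edgeR adjusted p = 0.00965). The interval of this estimate, from 0.79 to 3.17, includes changes below the DEG threshold. The direction was the same in all fits, but the call was lost without the first 4 h replicate (edgeR adjusted p = 0.0522), without the second 4 h replicate (edgeR adjusted p = 0.076) and without the second 8 h replicate (log2FC 1.44, edgeR adjusted p = 0.108), and over the alternatives that gave an adjusted p it ran from 0.00108 to 0.108. DESeq2 gave a log2FC of 2.04 but no adjusted p for this gene.

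**Figure D4:**
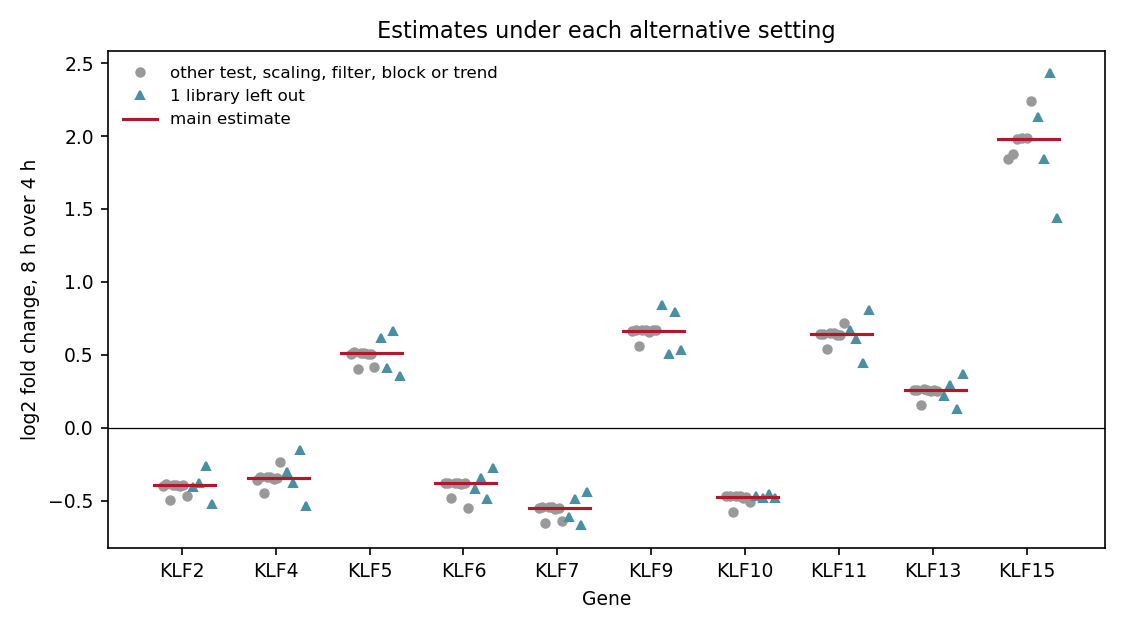
Log2 fold change of each member between 8 h and 4 h (vertical axis) as given in the text (red line), under each other test, scaling, filter, block or trend correction (grey circles) and with 1 library left out (blue triangles). No estimate of any member crosses zero, and KLF15 has the widest spread, from 1.44 to 2.43.

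Within a library, the proportions of members that rose to members that fell do not depend on the scaling, and some are given here. KLF5 had 0.168 and 0.138 reads for each KLF6 read at 4 h, against 0.236 and 0.338 at 8 h. For each KLF2 read it had 1.02 and 0.867 reads at 4 h, against 1.73 and 1.79 at 8 h. KLF9 had 0.25 and 0.181 reads for each KLF7 read at 4 h, against 0.422 and 0.591 at 8 h. On average these ratios were 1.88, 1.87 and 2.35 times as high at 8 h, and none overlapped between the times. Each sets a member higher in both 8 h libraries over a member lower in both. The separation therefore follows from the values of the single genes and is no further result.

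The other genes of the family were examined as a comparison. Of 8 further KLF genes, 7 were listed and 4 were retained, of which 1 was called, where 38.8% of all tested genes were called. KLF12, a repressor that binds the CtBP corepressors, fell, with 419 ± 28.9 normalized counts at 4 h against 312 ± 1.56 at 8 h (SD, n = 2 each), or −0.43 as log2FC (standard error 0.11, edgeR adjusted p = 0.00534), a call that was lost without the first 4 h replicate (log2FC −0.36, edgeR adjusted p = 0.0821, in a range of 0.000732 to 0.0821 over the alternatives). KLF3, of the same CtBP-binding branch, had a log2FC of 0.15 (95% interval −0.06 to 0.37). KLF16, of the SIN3-binding branch, had 364 and 385 normalized counts at 4 h, against 415 and 507 at 8 h and missed the threshold narrowly (log2FC 0.29, edgeR adjusted p = 0.0502). It passed with RLE size factors (adjusted p = 0.0475), with the replicate block (adjusted p = 0.0177) and without the first 8 h replicate (log2FC 0.44, adjusted p = 0.00385), in a range of 0.00385 to 0.395 over the alternatives. KLF17 had 14 to 31 reads and did not pass (log2FC −0.53, 95% interval −1.30 to 0.24). KLF1 had 0 reads, KLF14 had 1 read in all 4 libraries together, and KLF8 had 3 and 1 reads at 4 h and 0 at 8 h, too few to give a change.

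Of the 9 SP genes, which encode the nearest relatives of the KLF proteins, 5 were retained. SP1, the general GC box activator, rose, with 639 ± 19.3 normalized counts at 4 h against 1010.1 ± 68.5 at 8 h (SD, n = 2 each), or 0.66 as log2FC (standard error 0.09, edgeR adjusted p = 1.2e-05). SP6, an epithelial factor needed for tooth and skin appendages, had 26 and 27 reads at 4 h and 5 in both 8 h libraries, a fall of −2.07 in log2FC (standard error 0.47, edgeR adjusted p = 0.00159). SP6 passed the CPM filter only through the 4 h libraries, where it was higher, since a CPM of 1 stood for 8.06 to 10.3 reads. SP2 and SP3 were near zero, at 0.01 and 0.04, and SP4 had a log2FC of 0.47 on 25 to 37 reads without passing. SP5, SP7, SP8 and SP9 had 0 reads in all libraries.

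The counts in the lists that follow stand against the 38.8% of all tested genes, or 44.3% of those averaging 100 or more, that were called. Of 10 co-regulators that KLF proteins bind, 3 rose, 2 fell and 5 did not pass, with a median log2FC of 0.07. The genes that rose were EP300 and CREBBP, the paired acetyltransferases recruited by the activating branch, and SIN3A, the corepressor bound by KLF9, KLF10, KLF11 and KLF13. EP300 had 443 and 476 normalized counts at 4 h, against 839 and 939 at 8 h (log2FC 0.95, standard error 0.10, edgeR adjusted p = 3.76e-07). CREBBP had 1351 and 1431 at 4 h, against 2014 and 2446.5 at 8 h (log2FC 0.68, edgeR adjusted p = 9e-06). SIN3A went from 501 ± 14.4 to 692 ± 28.3 (SD, n = 2 each; log2FC 0.46, edgeR adjusted p = 0.00076). The acetyltransferase gene KAT2B (log2FC −0.45) and the deacetylase gene HDAC1 (log2FC −0.29) fell, though KAT2B did not pass without the first 4 h replicate (log2FC −0.37), HDAC1 did not pass without the second (log2FC −0.22), and DESeq2 called neither. CTBP1, CTBP2, SIN3B, HDAC2 and HDAC3 did not pass, with log2FC from −0.26 to 0.21, although SIN3B passed without the first 8 h replicate (log2FC 0.33). CTBP2 was at the threshold (log2FC −0.26, edgeR adjusted p = 0.0503) and was called lower under library size scaling, CPM above 2, the replicate block and the trend correction, with log2FC from −0.37 to −0.26.

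KLF2 and KLF4 are known to be induced by the kinase ERK5 through MEF2 factors, and the MEF2 site of the KLF2 sequence above is the kind of element they bind. Of the 7 genes of this route, MEF2D rose and 6 did not pass, with a median log2FC of 0.14. MEF2D had 904 and 958 normalized counts at 4 h, against 1584 and 1713 at 8 h (log2FC 0.82, standard error 0.08, edgeR adjusted p = 3.37e-07), opposite in direction to KLF2. MAPK7, which encodes ERK5, had 258 and 231 at 4 h, against 254 and 343 at 8 h, so the times overlapped (log2FC 0.28, 95% interval −0.02 to 0.58). Without the first 8 h replicate MAPK7 (log2FC 0.49) and MAP3K2 (log2FC 0.27) were called too, which made 3 of 7, and MAP3K2 was also called with the replicate block (log2FC 0.22).

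Of 6 ubiquitin ligase genes whose proteins are known to mark KLF proteins for degradation, 2 rose, 2 fell and 2 did not pass. FBXW7, which acts on KLF5 and KLF2, had 219 and 199 normalized counts at 4 h, against 359 and 368 at 8 h (log2FC 0.80, standard error 0.12, edgeR adjusted p = 5.03e-05). SIAH1, which acts on KLF10, rose by less (log2FC 0.39, edgeR adjusted p = 0.0112). FBXO32, which acts on KLF4, had 2044 and 2236.5 normalized counts at 4 h, against 1626 and 1608 at 8 h (log2FC −0.40, edgeR adjusted p = 0.000489), and VHL, which also acts on KLF4, fell by 0.26 on the log2 scale (edgeR adjusted p = 0.0417). The calls on SIAH1 and VHL were lost without the first 4 h replicate (log2FC 0.30 and −0.27), that on VHL also without the second 4 h replicate (log2FC −0.26) or the first 8 h replicate (log2FC −0.21), and neither was made by DESeq2. That on SIAH1 was lost with library size scaling too (log2FC 0.28), and that on VHL with no filter (log2FC −0.26). WWP1, which acts on KLF5, and SMURF1, which acts on KLF2, did not pass (log2FC −0.04 and 0.21), and SMURF1 passed without the first 8 h replicate (log2FC 0.24) and with the replicate block (log2FC 0.21).

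KLF9 rose, and so did KLF15, though on few reads and past the filter only through the 8 h libraries. Both are known glucocorticoid-responsive genes, and 8 of 9 further genes of that kind, the receptor included, were retained. All 8 were called, 4 higher and 4 lower, in a series where 38.8% of all tested genes were called, with a median log2FC of −0.13. PER1, a clock gene, had 232 and 283 normalized counts at 4 h, against 677 and 768 at 8 h (log2FC 1.49, standard error 0.12, edgeR adjusted p = 1.29e-08). DUSP1, a MAP kinase phosphatase, and CEBPD, a C/EBP transcription factor, were the other DEGs that were higher at 8 h, with log2FC of 1.31 and 1.79. FKBP5 and TSC22D3, which are often used as readouts of the receptor, fell, with log2FC of −0.51 (edgeR adjusted p = 0.000664) and −0.64 (edgeR adjusted p = 2.54e-06). SGK1 fell as well (log2FC −0.51), and ERRFI1, an inhibitor of the EGF receptor, was a DEG, with 4182.5 ± 347 normalized counts at 4 h against 1735.5 ± 182 at 8 h (SD, n = 2 each), or −1.27 as log2FC. NR3C1, the receptor gene itself, was slightly higher (log2FC 0.25, edgeR adjusted p = 0.0198), but this call was lost with library size scaling, with the trend correction, with DESeq2 and without any of 3 libraries, the first or second at 4 h or the second at 8 h, with adjusted p from 0.0601 to 0.177. ZBTB16 had 0 reads.

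Among 13 genes reported elsewhere as targets of single KLF factors, 9 were retained, of which 3 rose, 3 fell and 3 did not pass, with a median log2FC of −0.24. CDKN1A, the p21 cell cycle inhibitor activated by KLF4 and KLF6, had 36830 and 34018 normalized counts at 4 h, against 61310 and 63568 at 8 h (log2FC 0.82, standard error 0.06, edgeR adjusted p = 1.21e-08). CCND1, the cyclin D1 gene that KLF4 represses, fell, with 8558 ± 329 at 4 h against 5772 ± 172 at 8 h (SD, n = 2 each; log2FC −0.57, edgeR adjusted p = 3.58e-06). TGFBR1 (log2FC 0.66) and ODC1 (log2FC 0.55) rose, and PDGFA (log2FC −0.78), a target of KLF5, and PLAU (log2FC −0.30), the urokinase gene, fell. SMAD7, which KLF10 represses, and THBD, which KLF2 induces in endothelium, did not pass, with log2FC of −0.24 and 0.14, and SMAD7 passed without the first 8 h replicate (log2FC −0.33) and with library size scaling (log2FC −0.35). ENG, with 4 to 14 reads, did not pass either (log2FC −0.48). NOS3 and CCL5 had 0 reads in all libraries, and MAOA, with 0 to 2 reads, and SLC2A4, with 1 to 5, fell below the filter.

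**Figure D5:**
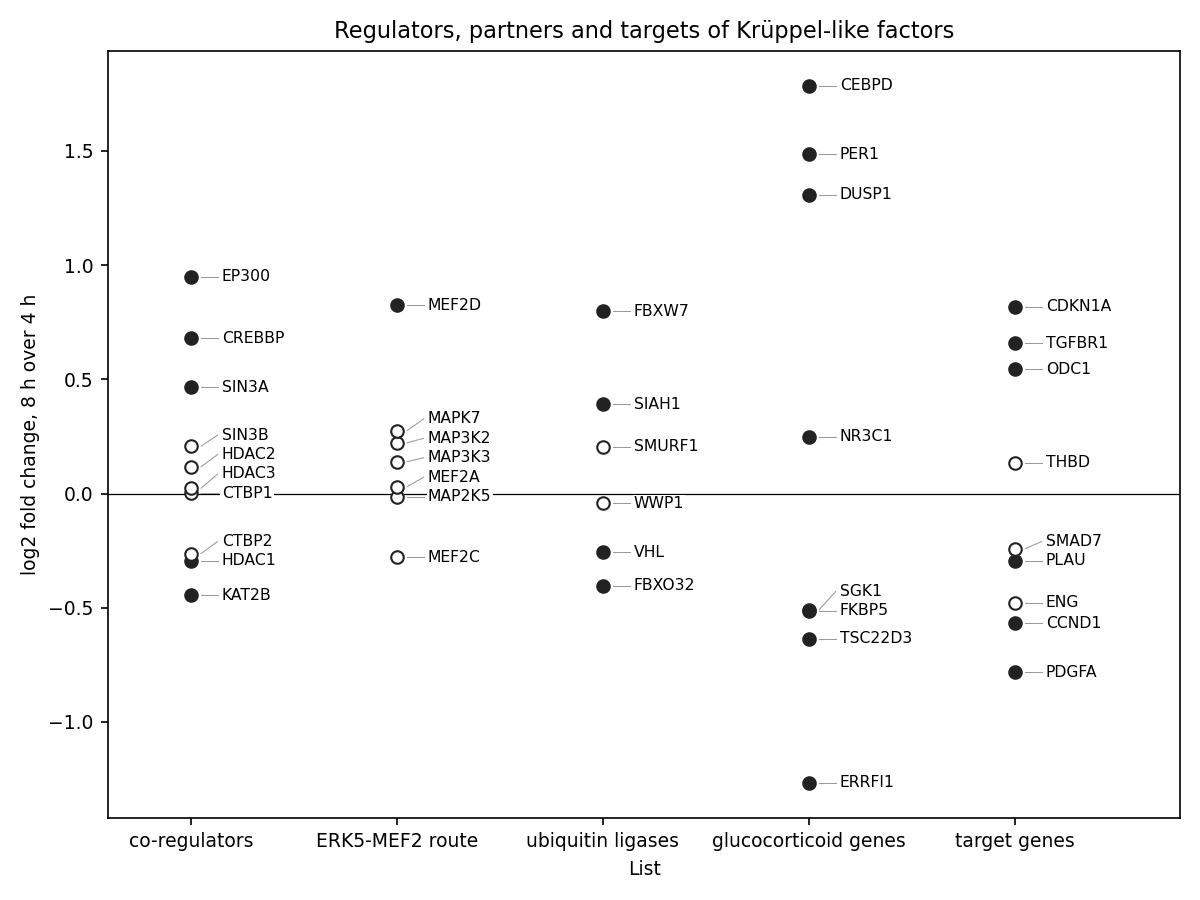
Log2 fold change between 8 h and 4 h (vertical axis) of the retained genes in 5 lists of KLF partners, regulators and targets, where filled points passed an edgeR adjusted p below 0.05 and open points did not. All lists hold genes on both sides of zero, and the glucocorticoid list has the widest range, from −1.27 for ERRFI1 to 1.79 for CEBPD.

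The genes most like the extreme members were sought by the distance between centred log2 normalized counts over the 4 libraries, among genes with a mean of at least 100. For KLF15 they were CEBPD, ZNF579 and NR4A2, at distances of 0.50, 0.62 and 0.64, with log2FC of 1.79, 1.57 and 2.06. KLF15 itself had only 4 to 18 reads, below the mean asked of these genes, so its pattern and its neighbours are imprecise. For KLF7 they were ADNP2, NUP37 and the long non-coding RNA LINC01089, at distances of 0.03 to 0.04, with log2FC between −0.56 and −0.51. With 4 libraries such closeness is a description of these samples.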

How the data were processed

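Total RNA of RPE-1 cells was made into stranded libraries from polyadenylated RNA and sequenced as single reads of 75 bases. Per the study's methods, reads were mapped to hg19 with Bowtie (version 1.2.0 in the submitters' processing notes) and only reads with a single position were kept. The authors deposited raw counts per gene and library, without normalization or filtering. The counting tool, the annotation and the use of strand were not given in the sources used here, so reads of overlapping genes on opposite strands cannot be told apart. MIR2355, within the KLF7 locus, was the one counted gene overlapping a member, with 0 reads. GENCODE lists 4 genes that overlap the span of KLF7, MIR2355 included, and 1 each for KLF4, KLF11 and KLF13. Those other than MIR2355 were not found by name among the counted genes. Whether their reads were counted on the members was not tested.

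Symbols were matched by NCBI Gene identifier through RefSeq (23308 of 23459 genes). Positions, transcript lengths and promoters came from GENCODE v44 on GRCh37. Genes passing a CPM of 1 in 2 or more libraries were retained, scaled by TMM and tested in R (4.3.3) with edgeR (4.0.16, quasi-likelihood, two-sided) on the 4 libraries, with time as the only term and Benjamini-Hochberg adjustment over 12559 genes. Standard errors are the log2FC divided by the square root of F. Alternatives were limma-voom (limma 3.58.1), the study's test, DESeq2 1.42.0, library size or RLE scaling, no filter or CPM above 2, the replicate number as a block, a correction for the trend with expression, and leaving out each library. The tests were tried on simulated counts. The changed genes there had larger changes than the members other than KLF15, and more reads than KLF15. That trial therefore does not cover changes like those of the members. Replicates were separate libraries by a chi-square test (2.67 and 3.84 per degree of freedom at 4 h and 8 h). The members, lists and tests were chosen with earlier results of these data known. The text names the 10 members, genes of the lists and markers, and the 3 nearest genes of the members with the largest rise and fall in log2FC.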

Additional observations from a re-analysis of the deposited data

How the results depend on the processing

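The 10 members kept their direction in all 118 fits under alternatives, and 112 of these kept the call, among them every fit of KLF2, KLF5, KLF6, KLF7, KLF9, KLF10 and KLF11. Between 7 and 9 members were called in every alternative, where the share of all genes called ran from 24.8% without the first 4 h replicate and 26.2% with DESeq2 to 43.7% with the replicate block. Without KLF15 it was 7 to 9 of 9 as well. The count of DEGs among the members, 1, was 0 with DESeq2, which gave KLF15 no adjusted p, and 0 with CPM above 2, which left KLF15 untested. Leaving out 1 library, with the lone library of a time assumed to vary like the other time, gave 0 to 1 DEG. It gave log2FC of 1.44 to 2.43 for KLF15, 0.13 to 0.37 for KLF13 and −0.54 to −0.16 for KLF4. It gave 0 to 2 calls among the other KLF genes, 1 to 3 in the ERK5-MEF2 list and 2 to 4 among the ubiquitin ligases. The other KLF genes had 2 calls with RLE size factors. DESeq2 made 3 calls among the co-regulators and 2 among the ubiquitin ligases. The cause of these changes was not tested. Library size alone moved the median log2FC of all genes to −0.11 and gave 1698 genes higher and 3289 lower, against 2500 and 2367 with TMM. DESeq2 called 3290 genes, against 4867.

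Same-numbered libraries deviated together little (correlation 0.05 across retained genes). This correlation gives genes with few reads the same weight as others, so it cannot exclude pairing. The sources do not say that the numbers pair the samples, and the main fit does not pair them. With the replicate number as a block, 5493 genes were called, against 4867 without it. KLF13 passed (log2FC 0.26), and 2 genes were called in the ERK5-MEF2 list and 2 among the other KLF genes. With 2 libraries per time, calls rest on the spread shared across genes, and changes of genes with few reads, such as KLF15 and KLF17, are imprecise.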
